A study of Mus musculus with 10 samples.

Results

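The Notch receptors Notch1, Notch2, Notch3 and Notch4, the ligands Jag1, Jag2 and Dll4 and the target genes Hes1, Hey1 and Hey2 were examined in whole mouse ovaries. They are 10 of the 55487 genes in the expression table, and they were taken by name as main genes of this pathway. Ovaries came from C57BL/6J females in 3 groups. Control mice were 8 weeks old (4 ovaries) and Aged mice 11 months old (3 ovaries) by the labels. Aged+CF mice (3 ovaries) were also 11 months old and had been given CEFFE, the cell-free protein fluid obtained from emulsified fat, as 200 μL at 3 μg/μL through the tail vein every 2 days for 2 weeks. Control and Aged mice had received saline. The written methods give a slightly younger age for the older mice than the labels do. In all 3 groups the ovaries were taken 48 h after 10 IU of PMSG, a gonadotropin that makes follicles grow.

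Notch signaling passes between touching cells. A Jagged or Delta-like ligand on a cell binds a Notch receptor on its neighbor, proteases release the intracellular part of the receptor, and this part joins the DNA-binding protein RBPJ in the nucleus to switch on genes such as those of the Hes and Hey repressors. In the ovary the pathway is known from the contact between oocytes and granulosa cells, where Jag1 and Notch2 act in follicle formation, and from blood vessels, where Dll4, Notch1 and Notch4 mark endothelial cells, Hey2 marks arteries and Notch3 marks the mural cells around vessels.

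The promoters of the 3 members whose levels differed between Aged and Control ovaries by the test below are shown because the table holds no sequence and RBPJ acts through DNA. Each line runs 5′ to 3′ on the gene's strand, from 250 bases before to 50 bases after the RefSeq start on GRCm38.p6. Capitals mark matches to the RBPJ core TGGGAA or to the AP-1 site TGAGTCA, searched on both strands, and no matches overlapped.
Hey2, chr10:30842734-30843033, minus strand: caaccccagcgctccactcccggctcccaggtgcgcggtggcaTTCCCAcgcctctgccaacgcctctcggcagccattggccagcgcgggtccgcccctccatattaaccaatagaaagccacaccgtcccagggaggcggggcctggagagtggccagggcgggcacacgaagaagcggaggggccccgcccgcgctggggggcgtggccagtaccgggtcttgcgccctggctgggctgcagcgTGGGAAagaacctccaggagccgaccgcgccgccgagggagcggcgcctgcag
Dll4, chr2:119325534-119325833, plus strand: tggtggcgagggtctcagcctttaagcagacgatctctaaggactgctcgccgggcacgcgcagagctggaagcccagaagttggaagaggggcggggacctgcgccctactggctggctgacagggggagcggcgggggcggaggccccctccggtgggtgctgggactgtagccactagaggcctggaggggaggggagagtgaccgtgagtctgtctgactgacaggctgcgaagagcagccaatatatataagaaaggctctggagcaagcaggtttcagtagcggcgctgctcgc
Notch4, chr17:34564045-34564344, plus strand: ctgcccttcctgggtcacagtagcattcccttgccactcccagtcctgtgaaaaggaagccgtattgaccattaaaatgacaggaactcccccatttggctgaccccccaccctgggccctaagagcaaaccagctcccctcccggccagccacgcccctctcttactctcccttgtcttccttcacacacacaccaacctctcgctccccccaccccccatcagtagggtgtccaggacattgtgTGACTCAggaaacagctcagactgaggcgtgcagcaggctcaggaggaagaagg
The Hey2 window held 2 RBPJ cores. The first began 207 bases before the start, on the opposite strand, and the second began 3 bases before the start, on the gene's own strand. Among all 32851 windows of this length, 25.6% held at least 1 core and 3.8% at least 2. The Dll4 window held none, and the Notch4 window held an AP-1 site that began 4 bases before the start on the opposite strand, a motif found in 5.2% of windows. Windows were matched for 8 of the 10 members, all but Hes1 and Hey1, and neither motif was found in the other 5. The E-box CACGTG, found in 7.2% of windows, was not found in any of the 8. These matches describe letters in a window and not binding.

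By the annotation on GRCm38 the Hey2 gene lies on chromosome 10 at 30832359 to 30842801 (minus strand), Dll4 on chromosome 2 at 119325784 to 119335962 (plus strand) and Notch4 on chromosome 17 at 34564268 to 34588503 (plus strand). Hey2 overlaps no other annotated gene. Notch1, Notch3, Notch4 and Dll4 each overlap a noncoding gene on the opposite strand, and Notch1, Notch2 and Jag2 overlap short noncoding entries on their own strand. Whether counting used the strand is not given in the sources used here, so reads of those partners cannot be told apart from reads of the member.

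Between 15761789 and 21318254 reads were counted on genes per ovary, and the members were well covered, from 87 reads for Hey1 in the ovary with the fewest to 3681 for Notch2. Levels are given as CPM, read counts scaled to the library size by TMM, as the mean ± SD. Aged 33 and Aged 34 stood farther from their own group than any other ovary did, and results that rest on them are given without them. Granulosa markers summed to 2379 CPM or more in every ovary, whereas oocyte markers summed to 340.3 to 459.6 CPM in Control, 11.69 to 95.74 in Aged and 129.7 to 199 in Aged+CF. In RNA of a whole organ, fewer cells of a type and less RNA per cell cannot be told apart. The labels do not say whether each ovary came from a mouse of its own, and p-values measure the spread between these ovaries.

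Per length of transcript, Hes1 and Notch2 had the highest levels. On the FPKM scale the Control means ran from Hes1 (14.79 ± 2.184, n = 4) over Notch2 (12.99 ± 0.676), Notch3 (9.745 ± 2.248), Hey2 (8.538 ± 0.2357), Jag1 (6.675 ± 0.457), Jag2 (4.087 ± 0.3638), Dll4 (4.073 ± 0.2334), Notch1 (3.853 ± 0.5613) and Hey1 (2.208 ± 0.1616) to Notch4 (1.854 ± 0.183). Neighbors in this order overlapped between ovaries except Hey2 and Jag1, Jag1 and Jag2, and Notch1 and Hey1. In Aged ovaries Hey2 stood seventh at 3.934 ± 1.157 FPKM (n = 3), after Dll4 at 5.606 ± 0.931 and Notch1 at 4.819 ± 0.9616, and its values overlapped those of Notch1 and of Jag2. In Aged+CF ovaries Notch2 led at 15.6 ± 0.2901 FPKM, above Hes1 at 11.81 ± 2.622 with no overlap.

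In Aged vs Control, the receptor Notch4 and the ligand Dll4 rose and the target Hey2 fell. The other 7 members did not pass the test, which asked for an adjusted p under 0.05 and a fold of at least 1.5 in edgeR's quasi-likelihood fit of all 10 ovaries. The 2 rises compare with 5% of the 18956 genes tested that rose by this test, the fall with 6.06% that fell, and the 3 calls with 11.1% in either direction. Without the limit on the fold, 4 members passed against 15.4% of all genes. In 5 members the values of the 2 groups did not overlap, which was so for 27.5% of all genes. Over the members, the log2 fold change had a median of 0.19, beside 0 for all genes tested.

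**Figure D1:**
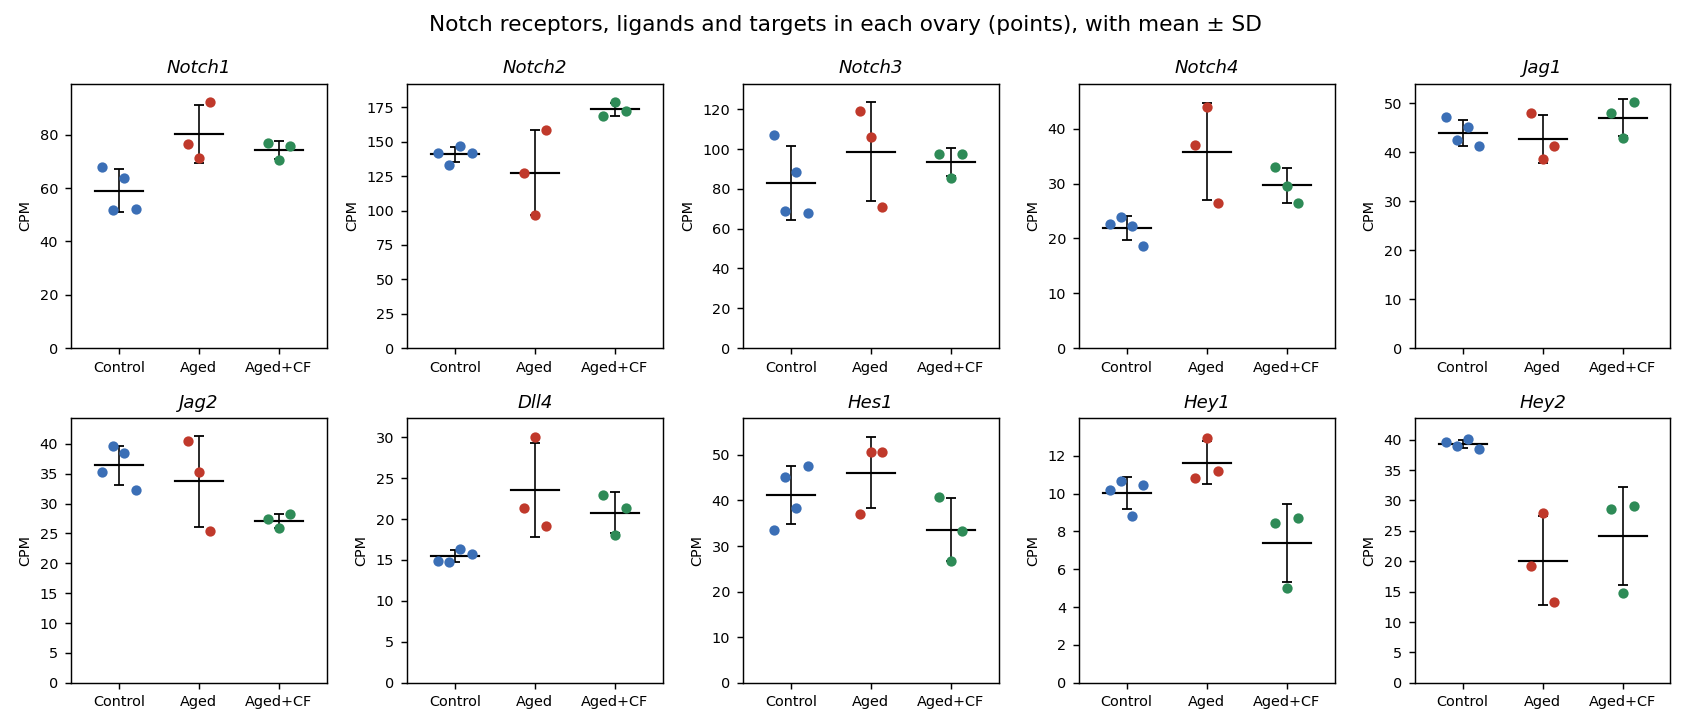
Level of each member (CPM, y axis from 0, a scale of its own per panel) in each ovary (points) of Control (n = 4), Aged (n = 3) and Aged+CF (n = 3), with the mean as a line and the SD as a bar. The 4 Control ovaries lie close together for Hey2, between 38.54 and 40.06 CPM, and all older ovaries lie below them.

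Notch4, a receptor found mainly on endothelial cells, was measured at 22.59, 23.88, 22.31 and 18.71 CPM in the Control ovaries. The Aged ovaries had 36.98, 44.02 and 26.47 CPM, and the Aged+CF ovaries 32.97, 29.64 and 26.48 CPM. All 6 older ovaries were above all 4 Control ovaries, and Aged and Aged+CF overlapped. In Aged vs Control the rise was 1.64-fold (log2 fold change 0.71, SE 0.17, 95% interval 0.33 to 1.09, adjusted p = 0.0225 by edgeR). The call was lost without Control 34 (adjusted p = 0.0638), Aged 31 (0.0539) or Aged 33 (0.0584), with adjusted p between 0.00156 and 0.0692 over all alternatives. The log2 fold change ran from 0.57 to 0.93 when ovaries were left out in turn.

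Notch1, a receptor of both endothelial and immune cells, was at 67.93, 51.93, 63.64 and 52.32 CPM in Control, at 76.65, 71.46 and 92.41 CPM in Aged and at 76.77, 70.59 and 75.84 CPM in Aged+CF. Here too every older ovary was above every Control ovary. The log2 fold change in Aged vs Control was 0.44 (SE 0.13, adjusted p = 0.0401 by edgeR), a fold of 1.36, which is under the limit of 1.5. The adjusted p ran from 0.00839 to 0.176 over the alternatives. Immune markers, from Ptprc of all leukocytes to Jchain of plasma cells, summed to 62.91 to 70.35 CPM in Control, 90.72 to 347 in Aged and 93.57 to 105.1 in Aged+CF, and the highest value was in Aged 34, the ovary with the most Notch1. Aged 34 was also the highest ovary for markers of stroma (3072 CPM), surface epithelium (335.1 CPM) and mural cells (2735 CPM). Oviduct markers, among them Ovgp1 and Foxj1, summed to 360.1 CPM in Aged 34 and 386.9 CPM in Control 33. In the other ovaries they summed to 24.41 to 82.27 CPM. The part of immune cells and of these other tissues in the Notch1 values was not tested.

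Notch2, the receptor of granulosa cells, was at 141.5, 133.2, 147 and 141.6 CPM in Control. The Aged ovaries were spread from 96.58 in Aged 33 to 158.5 in Aged 34, with 127.1 in Aged 31, while Aged+CF ovaries lay together at 169.1, 179 and 172.5 CPM. The Aged ovaries thus surrounded the Control ovaries, and the Aged+CF ovaries were above all others. Notch3, the mural cell receptor, ranged from 67.7 to 107 CPM in Control, 70.91 to 118.9 in Aged and 85.41 to 97.64 in Aged+CF, so that the groups overlapped. Aged vs Control gave log2 fold changes of -0.14 (95% interval -0.46 to 0.17) for Notch2 and 0.25 (-0.2 to 0.69) for Notch3.

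Dll4, the Delta-like ligand of endothelial cells, was at 14.88, 14.78, 16.33 and 15.74 CPM in Control. It was at 21.35, 29.98 and 19.13 CPM in Aged and at 22.88, 18.04 and 21.37 CPM in Aged+CF. All older ovaries were above all Control ovaries, and the highest value was that of Aged 33. The rise in Aged vs Control was 1.52-fold (log2 fold change 0.6, SE 0.16, 95% interval 0.25 to 0.96, adjusted p = 0.0328 by edgeR). This lies just past the limit of 1.5, and the call was lost without Control 31 (adjusted p = 0.0722), Control 32 (0.0828), Control 33 (0.0595), Control 34 (0.075) or Aged 33 (0.0634), within 0.00407 to 0.126 over all alternatives. Without Aged 33 the log2 fold change was 0.42.

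Jag1, the ligand that oocytes present to granulosa cells, lay in a narrow range. It ran from 41.24 to 47.15 CPM in Control, 38.52 to 48.02 in Aged and 42.91 to 50.2 in Aged+CF, with a log2 fold change of -0.05 in Aged vs Control (95% interval -0.28 to 0.19). Jag2, the second Jagged ligand, was at 35.25, 39.59, 38.54 and 32.34 CPM in Control and at 40.44, 35.34 and 25.47 CPM in Aged. Its Aged+CF values of 27.35, 25.85 and 28.22 CPM were below all Control ovaries but not below Aged 34. The log2 fold change of Jag2 in Aged vs Control was -0.11 (95% interval -0.44 to 0.22).

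Hey2, a repressor that Notch switches on in arterial endothelium, fell. It was at 39.63, 38.9, 40.06 and 38.54 CPM in Control, at 19.27, 27.87 and 13.23 CPM in Aged, and at 28.61, 14.76 and 29.01 CPM in Aged+CF. The SD was 0.6879 CPM in Control and 7.354 CPM in Aged, so the Control ovaries agreed far more closely than the older ones. In Aged vs Control Hey2 was 1.96-fold lower (log2 fold change -0.97, SE 0.27, 95% interval -1.58 to -0.35, adjusted p = 0.0413 by edgeR). The call was lost without Control 31 (adjusted p = 0.0769), Control 32 (0.0863), Control 33 (0.0783), Control 34 (0.0841), Aged 31 (0.114), Aged 34 (0.0802), Aged+CF 30 (0.0633) or Aged+CF 34 (0.0611), within 0.00789 to 0.114 over all alternatives. The log2 fold change stayed between -1.24 and -0.7 in these fits.

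The other 2 targets did not pass the test. Hes1, the general Notch target, was at 33.62, 45.07, 38.29 and 47.5 CPM in Control, 37.1, 50.58 and 50.56 CPM in Aged and 40.76, 26.82 and 33.19 CPM in Aged+CF. These groups overlapped. Hey1, the close relative of Hey2, was at 10.21, 10.66, 8.823 and 10.44 CPM in Control, 10.8, 12.91 and 11.19 CPM in Aged and 8.428, 4.997 and 8.719 CPM in Aged+CF. Every Aged ovary was above every Control ovary and every Aged+CF ovary below both. The log2 fold changes in Aged vs Control were 0.16 for Hes1 (95% interval -0.23 to 0.56) and 0.21 for Hey1 (-0.22 to 0.65).

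**Figure D2:**
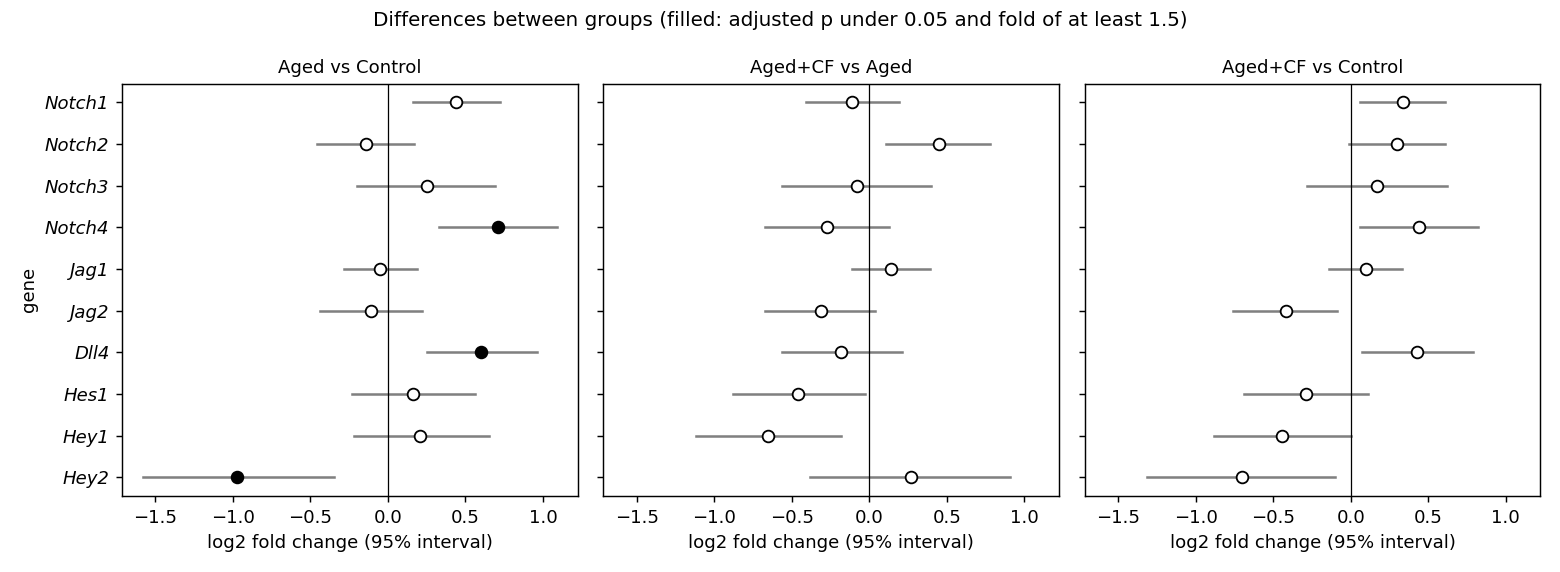
Log2 fold change of each member (points) with its 95% interval (lines) in the 3 comparisons. Filled points passed an adjusted p under 0.05 and a fold of at least 1.5, which Notch4, Dll4 and Hey2 did in Aged vs Control and no member did in the other comparisons.

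Within the families, Hey2 took a smaller part of the targets and Dll4 a larger part of the ligands in Aged than in Control ovaries. By FPKM, Hey2 was 33.6 ± 3.49% of the 3 targets in Control (30.2 to 37.5%), 18.5 ± 5.5% in Aged (12.2 to 22.3%) and 27.2 ± 4.14% in Aged+CF (23 to 31.3%). The share in Aged was below that in each of the other groups in every ovary. The Hes1 share was 57.7 ± 3.96% in Control ovaries, 70.5 ± 5.89% in Aged ovaries and 64.3 ± 4.97% after CEFFE. Dll4 was 27.5 ± 1.59% of the 3 ligands in Control (26.1 to 29.6%), 37.5 ± 6.4% in Aged (32.3 to 44.6%) and 34.9 ± 1.7% in Aged+CF (33.6 to 36.8%), so no older ovary was within the Control range. Among receptors Notch2 and Notch3 together made up most of the FPKM in each group, and Notch4 was 6.56 ± 0.867% in Control and 9.67 ± 2.7% in Aged. The shares were not tested.

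**Figure D3:**
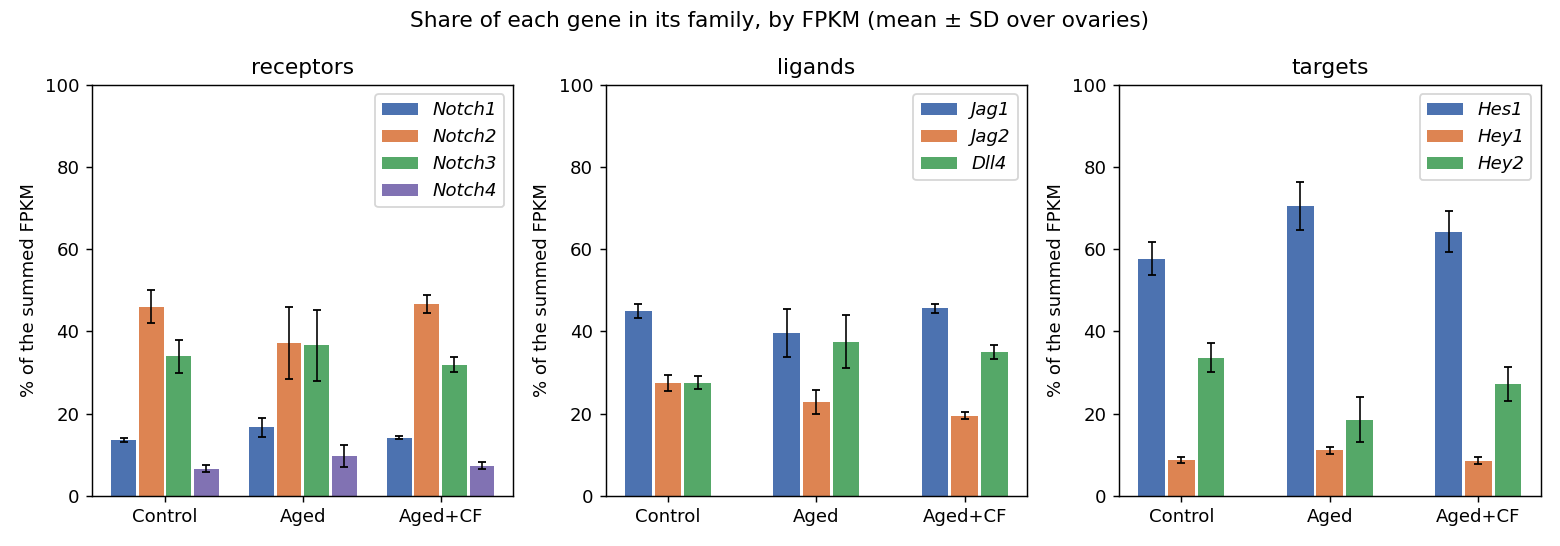
Share of each member in the summed FPKM of its family (percent, y axis from 0 to 100) in Control (n = 4), Aged (n = 3) and Aged+CF (n = 3), as bars of the mean with the SD. The Hey2 bar falls from 33.6% in Control to 18.5% in Aged, and the Dll4 bar is 27.5% in Control and 37.5% in Aged.

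Markers of several cell types moved with Notch4 and Dll4, those of endothelial cells among them. The 9 endothelial markers, among them Pecam1, Cdh5 and Kdr, summed to 540.6 to 630.9 CPM in Control, 733.6 to 968.2 in Aged and 618.1 to 701.8 in Aged+CF. All 9 had a positive log2 fold change in Aged vs Control, with a median of 0.6, and 5 of them rose by the test, against 5% of all genes. Aged 33 had the highest level of the markers, of Notch4 and of Dll4. Aged 33 was also highest for 3 further lists. Erythroid markers, the globin genes and Alas2 of red blood cells, summed to 71.78 to 111.9 CPM in Control, 265.3 to 637.7 in Aged and 108.9 to 260.1 in Aged+CF, and 5 of 5 rose in Aged vs Control. Theca and steroidogenic markers, among them Cyp11a1 and Star of steroid synthesis, summed to 6182 to 10720 CPM, 14760 to 31170 and 12420 to 16890 in the same order, and 4 of 6 rose. Insl3 and Cyp17a1 of this list did not. Insl3 was lower, at a mean of 9.648 CPM in Control and 3.694 in Aged, and did not pass the test. Cyp17a1 overlapped, at 52.96 to 296.8 CPM in Control and 16.88 to 504.3 in Aged, with the highest value in Aged 34. Luteal markers, such as Akr1c18 and Ptgfr of the corpus luteum, summed to 553 to 1587 CPM, 1540 to 6149 and 1982 to 5584, and 3 of 4 rose. The median log2 fold changes of these lists in Aged vs Control were 2.29, 1.21 and 1.58. Their part in the rise of Notch4 and Dll4 was not tested. Set against the endothelial sum, Notch4 was 33.2 to 44.2 CPM per 1000 endothelial CPM in Control and 36.1 to 45.5 in Aged. In Aged+CF this ratio of Notch4 was 37.7 to 51.5. Dll4 was 23.6 to 28 in Control, 25.3 to 31 in Aged and 29.2 to 35.7 in Aged+CF. Both genes overlapped between Control and Aged, but Dll4 was above all Control ovaries in every Aged+CF ovary. Hey2 was 62.8 to 72 in Control, 18 to 28.8 in Aged and 23.9 to 44.7 in Aged+CF on this scale, with every older ovary below Control. Every Aged ovary was also below Control for Jag1 (39.8 to 56.8 against 73.2 to 78.4) and Jag2 (34.7 to 47.9 against 55.9 to 73.2). The same held for Notch2 (99.8 to 216 against 224 to 251). The separation on this scale is thus not particular to Hey2, as the endothelial sum itself was higher in Aged. These ratios were chosen after the values were seen and have no test, and the part of the number of endothelial cells in the results was not tested. Mural markers summed to 1914 to 2197 CPM in Control, 1455 to 2735 in Aged and 1287 to 1866 in Aged+CF, and granulosa markers to 4318 to 7224, 3223 to 3790 and 2379 to 4145. Granulosa and oocyte markers were lower in Aged than in Control ovaries, as was Hey2. All 8 granulosa markers had a negative log2 fold change in Aged vs Control, with a median of -0.83, and 0 passed the test. All 10 oocyte markers had a negative one, with a median of -2.62, and 9 of them fell by the test, against 6.06% of all genes. The oocyte sum was lowest in Aged 34 (11.69 CPM), as was Hey2. Among the older ovaries Aged+CF 32 (2379 CPM) and Aged 34 (3223 CPM) had the lowest granulosa sums and the lowest Hey2. Aged 31 (3407 CPM) and Aged 33 (3790 CPM) followed in both, and Aged+CF 34 (4068 CPM) and Aged+CF 30 (4145 CPM) were highest in both. Within the lowest and the highest pair, the order differed between granulosa sum and Hey2. In Control the granulosa sum ran from 4318 CPM in Control 31 to 7224 CPM in Control 32, with Hey2 at 39.63 and 38.9 CPM. Aged+CF 30 had a granulosa sum near that of Control 31 but Hey2 at 28.61 CPM. The part of granulosa cells and of oocytes in the fall of Hey2 was not tested. No marker of the lists named here was at 0 in any group.

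**Figure D4:**
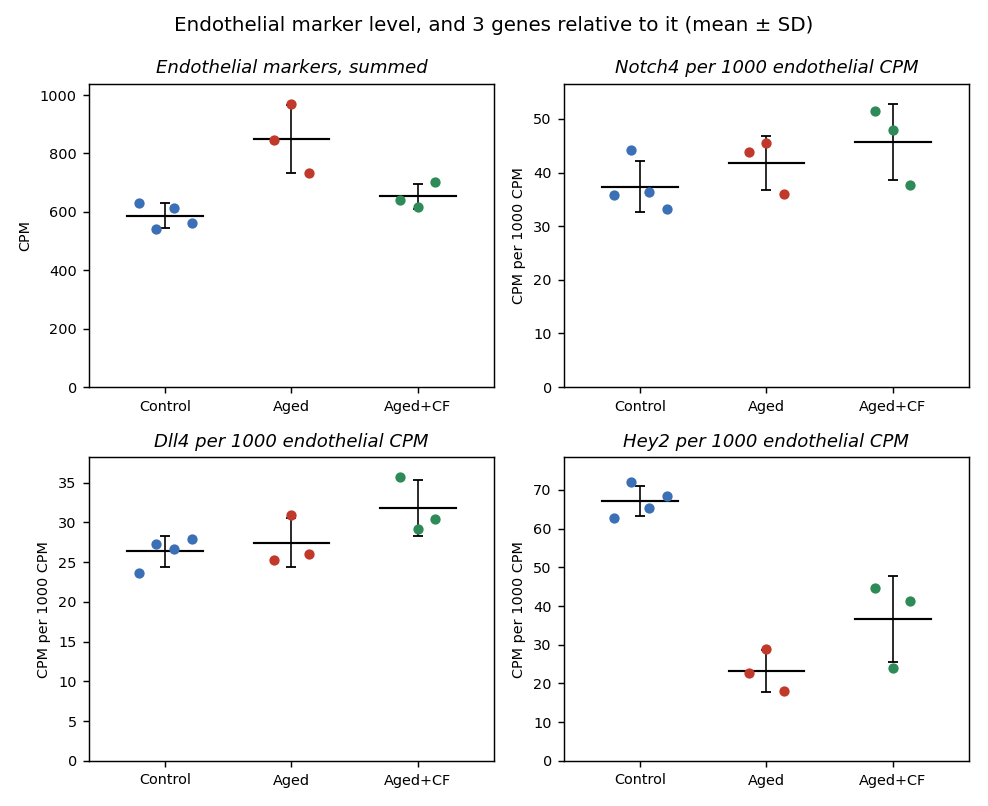
Summed CPM of 9 endothelial markers (first panel) and CPM of Notch4, Dll4 and Hey2 per 1000 CPM of that sum (other panels) in each ovary (points), with the mean and SD, y axes from 0. The sum is 733.6 to 968.2 CPM in Aged and 540.6 to 630.9 in Control, and the ratio of Hey2 is 18 to 28.8 in Aged and 62.8 to 72 in Control.

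Aged+CF vs Aged asked whether CEFFE changed the levels in older ovaries. No member passed the test (0 of 10, against 0.00528% of all genes), and DESeq2's Wald test also called 0. At an unadjusted p under 0.05, 3 members were set apart, Notch2 higher and Hes1 and Hey1 lower, against 16.3% of all genes, and with a fold of at least 1.5 only Hey1 was, against 7.96%. The groups did not overlap for Notch2 and Hey1, as for 18.6% of all genes. Over the members, the log2 fold change had a median of -0.14, beside -0.02 for all genes tested.

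Hey1 in Aged+CF was 1.57-fold lower than in Aged (log2 fold change -0.65, SE 0.21, 95% interval -1.12 to -0.18, adjusted p = 0.205 by edgeR, 0.0535 to 0.738 over the alternatives). Notch2 had a log2 fold change of 0.45 (SE 0.15, 95% interval 0.11 to 0.78, adjusted p = 0.216 by edgeR). Without Aged 34, which had the highest Notch2 of its group, Notch2 was called, at 0.62 with an adjusted p of 0.0367 by edgeR, within 0.0367 to 0.75 over the alternatives. For the 3 members called in Aged vs Control, Aged+CF vs Aged gave log2 fold changes of -0.27 for Notch4 (95% interval -0.67 to 0.13), -0.18 for Dll4 (-0.56 to 0.21) and 0.27 for Hey2 (-0.38 to 0.91). Each of these intervals held 0, and no change with CEFFE was detected. Both comparisons use the same Aged ovaries, and the Aged+CF mean lay between those of Control and Aged in 5 of 10 members and in 49% of all genes tested.

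Aged+CF vs Control likewise had 0 of 10 members called, against 0.179% of all genes, and 0 by DESeq2. At an unadjusted p under 0.05, 5 members were set apart, Notch1, Notch4 and Dll4 higher and Jag2 and Hey2 lower, against 14.3% of all genes, and with a fold of at least 1.5 only Hey2 was, against 7.69%. The groups did not overlap in 7 members, as in 21.9% of all genes. Hey2 was 1.63-fold lower in Aged+CF (log2 fold change -0.7, 95% interval -1.31 to -0.1, adjusted p = 0.289 by edgeR). Jag2 had a log2 fold change of -0.42 (95% interval -0.76 to -0.09), Notch4 of 0.44 (0.06 to 0.82) and Dll4 of 0.43 (0.07 to 0.79).

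The members differed in how alike their profiles were. With log2 CPM standardized over the 10 ovaries, the root mean square difference of Notch4 and Dll4 was 0.46, the smallest between any pair of members, followed by 0.58 between Hes1 and Hey1. Hey2 was nearest to Jag2 (0.87) and far from Notch1 (1.76). Among the 16744 genes with a mean of at least 1 CPM, the nearest to Dll4 were Gja5, a gap junction gene of arteries, then Dbt and Fbxl5 (0.3 to 0.33). The nearest to Hey2 were Sema3g, H60b and Pnkd (0.25 to 0.29), and those to Notch4 were Gm2260, Cd28 and Rims2 (0.25 to 0.29). Notch1 was nearest to Cd274, Nfkbie and Itgax (0.24 to 0.32), which are genes of immune cells and their signaling, and Notch2 to Axl, Slc16a10 and Dyrk2 (0.16 to 0.23). For the other members the nearest genes were Kcng2, Zfp551 and Tns3 (Notch3), Zfp558, Ppm1f and D630023F18Rik (Jag1), 1110006O24Rik, Tent5c and Dynlt1c (Jag2), Il11ra1, Adhfe1 and Ggct (Hes1), and Dnajc25, Nsun4 and Gm50387 (Hey1), with differences of 0.28 to 0.4. Each profile rests on 10 ovaries that share library and tissue make-up, so likeness is a description.

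Beyond the members, 66 other genes of the pathway were listed by role, and 64 were tested, all but Dll3 and Hes5. In Aged vs Control 2 rose and 4 fell, and 58 did not pass the test. These 6 of 64 compare with 11.1% of all genes called, 5% higher and 6.06% lower, and are no more than that background. Their median log2 fold change was -0.06. Among the further ligands, 2 of 7 fell. Dlk2, a Delta-like protein without the receptor-binding part, fell from 1.855 ± 0.7762 to 0.2492 ± 0.1189 CPM (log2 fold change -2.88, SE 0.49, adjusted p = 0.00784 by edgeR), with only 2 to 5 reads in each Aged ovary. It overlaps Abcc10 on the opposite strand. Mfap2, a microfibril protein that can bind Jag1, fell from 124.9 to 76.4 CPM (log2 fold change -0.71, adjusted p = 0.0176 by edgeR), a call lost without Control 34 (0.051).

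Of 15 corepressors, Tle4 fell and Tle5 rose. Tle4, a Groucho protein that Hes factors recruit, was at 27.6 to 31.67 CPM in Control and 16.23 to 22.33 CPM in Aged (log2 fold change -0.67, SE 0.15, adjusted p = 0.0162 by edgeR). Its fold was under the limit without Aged 33, at -0.55. Tle5, a short Groucho relative that can counteract the others, was at 305.3 to 383.5 CPM in Control and 376.3 to 734.5 CPM in Aged (log2 fold change 0.74, SE 0.19, adjusted p = 0.0319 by edgeR), so the groups overlapped through Aged 34. Its call was lost without Control 32, 33 or 34, or without Aged 31 or 33, with a log2 fold change of 0.52 without Aged 33. No gene for receptor processing (10), glycosylation (6), endocytosis and turnover (13) or nuclear coactivators (9) was called.

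Of 4 further targets tested, Heyl fell and Nrarp rose. Heyl, a Hey gene that mural cells express, was at 120, 109.9, 83.67 and 109.7 CPM in Control and at 79.09, 72.52 and 53.87 CPM in Aged (log2 fold change -0.63, SE 0.17, adjusted p = 0.0371 by edgeR). Heyl was called in only 4 of 10 fits that left out an ovary, those without Control 33 (-0.72), Aged 31 (-0.71), Aged+CF 32 (-0.63) or Aged+CF 34 (-0.59). Nrarp, a target that limits Notch activity, was at 7.237, 6.733, 7.86 and 5.831 CPM in Control, 11.27, 12.13 and 9.263 CPM in Aged and 7.511, 4.767 and 5.203 CPM in Aged+CF. The Aged ovaries were above all others. The log2 fold change of Nrarp was 0.65 in Aged vs Control (SE 0.2, adjusted p = 0.0495 by edgeR), called in only 2 of the 10 fits that left out an ovary, those without Aged 34 (0.79) or Aged+CF 30 (0.69). In Aged+CF vs Aged it was -0.9 (SE 0.21, 95% interval -1.38 to -0.43, adjusted p = 0.161 by edgeR). Nrarp was called there without Aged 34 (-1.02, adjusted p = 0.0439) and by DESeq2 (-0.91, adjusted p = 0.00688), within 0.00688 to 0.728 over the alternatives.

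**Figure D5:**
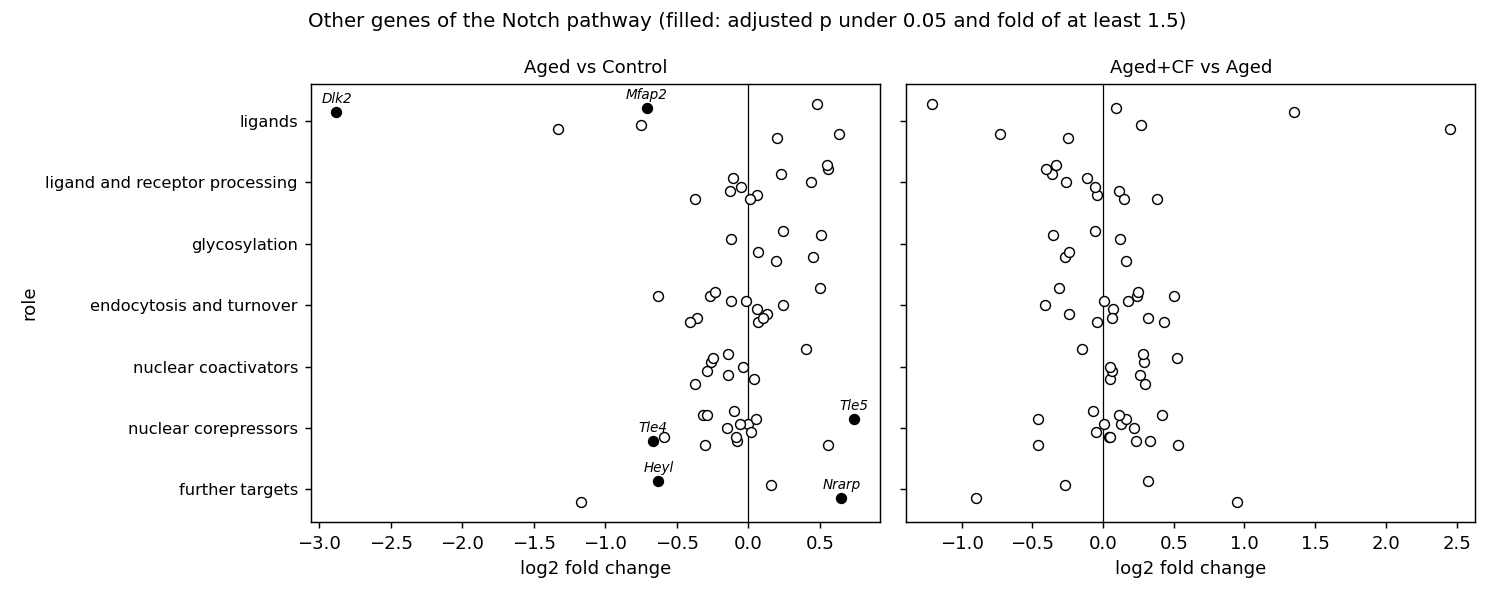
Log2 fold change of the 64 other pathway genes tested (points, by role) with age (left, Aged vs Control) and with CEFFE (right, Aged+CF vs Aged). Filled and named points passed an adjusted p under 0.05 and a fold of at least 1.5. There are 6 in the first comparison, with Dlk2 at -2.88 the farthest from 0, and 0 in the second.

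A further 6 pathway genes passed the adjusted p in Aged vs Control with a fold under 1.5, for 12 of 64 in all, beside 15.4% of all genes. These 6 were not among the genes fixed by rule, and all are given. Kat2b, a histone acetyltransferase of the coactivators, had the smallest adjusted p of the 6 and was at 69.89 to 75.58 CPM in Control, 91.31 to 102 CPM in Aged and 86.58 to 89.08 CPM in Aged+CF. Kat2b had a log2 fold change of 0.4 in Aged vs Control (SE 0.07, adjusted p = 0.00969 by edgeR, 7.68e-07 to 0.0811 over the alternatives). Rbpj, the DNA-binding partner of all Notch receptors, was at 80.61 to 88.79 CPM in Control, 60.46 to 68.26 CPM in Aged and 74.55 to 86.9 CPM in Aged+CF. Every Aged ovary was below every ovary of the other groups. The log2 fold change of Rbpj was -0.37 in Aged vs Control (SE 0.09, adjusted p = 0.0211 by edgeR, 0.00107 to 0.0735 over the alternatives) and 0.3 in Aged+CF vs Aged (SE 0.09, adjusted p = 0.192 by edgeR, 0.0385 to 0.728 over the alternatives). Adam10, the protease that makes the first cut in a bound receptor, was at 166.9 to 203.9 CPM in Control, 135.6 to 149.8 CPM in Aged and 177.3 to 199 CPM in Aged+CF. Adam10 had a log2 fold change of -0.37 in Aged vs Control (SE 0.09, adjusted p = 0.0274 by edgeR, 0.00305 to 0.0887 over the alternatives) and 0.38 in Aged+CF vs Aged (SE 0.1, adjusted p = 0.169 by edgeR, 0.0114 to 0.728 over the alternatives). Mfng, a sugar transferase that tunes which ligand a receptor answers to, was at 12.14 to 14.09 CPM in Control and 16.05 to 21.8 CPM in Aged. Its log2 fold change was 0.51 (SE 0.14, adjusted p by edgeR or DESeq2 of 0.00501 to 0.164 over the alternatives), and Mfng was called without Aged 31 (0.64). Aph1b, a subunit of the γ-secretase that makes the last cut, was higher, at 22.32 to 26.35 CPM in Control and 28.39 to 46.76 CPM in Aged. Its log2 fold change was 0.55 (SE 0.17, adjusted p by edgeR or DESeq2 of 0.0111 to 0.129 over the alternatives), and Aph1b was called without Aged 31 (0.72). Ctbp2, a corepressor whose annotation overlaps Fgfr2, was lower, at 67.09 to 77.87 CPM in Control and 54.64 to 61.15 CPM in Aged. Its log2 fold change was -0.32 (SE 0.09, adjusted p by edgeR or DESeq2 of 0.0141 to 0.152 over the alternatives). The 6 genes thus hold 3 that were higher and 3 that were lower, with both directions among processing and nuclear genes.

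In Aged+CF vs Aged and in Aged+CF vs Control none of the 64 pathway genes passed the test in edgeR. DESeq2's Wald test called 1 gene in each. At an unadjusted p under 0.05, 13 of 64 were set apart in Aged+CF vs Aged, 11 higher and 2 lower. Of all genes 16.3% were, 8.06% higher and 8.27% lower. In Aged+CF vs Control 8 were set apart, 2 higher and 6 lower, beside 14.3% of all genes, 6.41% higher and 7.89% lower. In either direction together, both shares are near the background. By direction they were less even than all genes, with 11 higher and 2 lower of 64 in Aged+CF vs Aged. This split was not tested.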

How the data were processed

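RNA of 10 mouse ovaries was sequenced, with a library each, and groups were taken from the labels. The authors deposited counts of reads for each gene, not normalized, and FPKM values. The submitters' processing notes name TopHat, Cufflinks 2.1.1 and GRCm38.p4, and the counting tool is not given in the sources used here. In the deposited FPKM values each count is divided by a gene length equal in all ovaries and by the count total. The table holds 55487 genes, 18869 with no count, and all of its sample columns were used.

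Counts were analysed with edgeR 4.0.16 in R 4.3.3. The filter on low counts left 18956 genes. Libraries were scaled by TMM, and the 3 group means were fitted by quasi-likelihood over the 10 ovaries together. A gene was called at a Benjamini-Hochberg adjusted p under 0.05 over all genes tested and a fold of at least 1.5. The SE is the log2 fold change divided by the root of F. Likeness used log2 CPM with a prior count of 2. FPKM was used for levels between genes and for shares within families, and in no test. The code was tested on simulated counts. No libraries of a group agreed within sampling noise.

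Members and lists were chosen with earlier results of these data known, and gene lists come from general knowledge. Named were all members, the pathway genes called in any comparison (at most 12), the 3 nearest genes of members, and markers whose level moved with a result. Rbpj, Adam10, Mfng, Kat2b, Aph1b and Ctbp2 were chosen after their values were seen. Alternatives were DESeq2 size factors, DESeq2 1.42.0's Wald test, no filter on low counts, only the 2 groups compared, a replicate block, no limit on the fold, an unadjusted p and leaving out each ovary. Positions come from GENCODE M21 on GRCm38, where 55227 of the gene IDs were found, and promoter sequences from RefSeq on GRCm38.p6.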

Additional observations from a re-analysis of the deposited data

How the results depend on the processing

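The calls in Aged vs Control lie near the threshold. The 3 members called in Aged vs Control became 1 with no filter on low counts and 0 with the replicate block, and ranged from 0 to 3 when ovaries were left out in turn. The count was 0 without Control 34 and 1 without Control 31, 32 or 33 or Aged 31 or 33. The 6 pathway genes became 3 with only the 2 groups in the fit, 0 with the replicate block and 12 with no limit on the fold, and ranged from 2 (without Control 34 or Aged 33) to 6. At unadjusted p with the fold limit, 1 member and 3 pathway genes were called in Aged+CF vs Aged and 1 member and 2 pathway genes in Aged+CF vs Control, against 0. DESeq2's Wald test called 1 pathway gene in each of these. Leaving out ovaries gave 0 to 1 members and 0 to 3 pathway genes in Aged+CF vs Aged, the upper values without Aged 34, and 0 to 0 of both in Aged+CF vs Control. The cause of these moves was not tested.

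Calls of members in the 10 fits that left out an ovary numbered 7 for Notch4, 5 for Dll4 and 2 for Hey2, and none of these 3 turned its direction in Aged vs Control. Correlations of same-numbered deviations were low, from -0.18 to 0.15. Of 10 ovaries, 4 correlated best with their own number, a count that has no chance level beside it. These values do not settle whether the replicate number pairs ovaries. With the replicate block 80 genes were called in Aged vs Control against 2096. Directions turned only for small differences. With the replicate block these were Notch3 (0.32), Mfap2 (-0.03) and Ctbp2 (-0.01) in Aged+CF vs Aged. With an ovary left out they were, with the range of log2 fold changes, Notch2 (-0.3 to 0.05), Jag1 (-0.11 to 0.05) and Jag2 (-0.23 to 0.09) in Aged vs Control, Notch3 (-0.28 to 0.06), Dll4 (-0.32 to 0.03) and Mfap2 (-0.04 to 0.24) in Aged+CF vs Aged, and Adam10 (-0.03 to 0.07) in Aged+CF vs Control. Without Aged 33, which was the ovary with the most Dll4, the sign of Dll4 turned in Aged+CF vs Aged.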
